A study of Mus musculus with 2 samples.

Results

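Trem2, Spp1, Gpnmb, Apoe, Cd9, Cd63, Lpl and Lgals3 are 8 genes that are read as a signature of lipid-associated macrophages. They were taken by symbol from all genes listed for the 2 libraries, and all 8 were found. The cells came from subcutaneous tumors of MC38, a mouse colon adenocarcinoma line, grown in female C57BL/6J mice of 6 to 8 weeks. Mice ate a ketogenic diet from day 4 after injection, or a normal diet throughout, and tumors were taken on day 14. Dead cells were removed, leukocytes were enriched with beads against CD45, and the cells of 5 mice were pooled into 1 library per diet. Both groups therefore share the tumor line, the strain, the sex and the enrichment, and differ by label only in diet. Because each diet has 1 library, the spread between mice is unknown and the diets were compared by size alone. Intervals are 95% intervals and cover counting error only.

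Lipid-associated macrophages are phagocytes that take up and break down lipid-rich debris in fat tissue, atherosclerotic plaques and tumors. TREM2 is a surface receptor that binds lipids and lipoproteins, including apolipoprotein E, and signals through the adaptor TYROBP. Osteopontin, the Spp1 product, is a secreted matrix protein bound by CD44 and integrins. GPNMB is a transmembrane glycoprotein of lysosome-rich cells, LPL releases fatty acids from triglyceride-rich lipoproteins, CD9 and CD63 are tetraspanins of the cell surface and of endosomes, and galectin-3, the Lgals3 product, binds galactose-bearing glycans.

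All 8 are protein-coding genes of the GRCm38 annotation. Trem2 lies on chromosome 17 from 48346401 to 48354147, Spp1 on chromosome 5 from 104435118 to 104441050, and Apoe on chromosome 7 from 19696109 to 19699188. Gpnmb and Cd9 share chromosome 6, from 49036546 to 49070929 and from 125460266 to 125494791. Cd63 lies on chromosome 10 from 128900989 to 128912822, Lpl on chromosome 8 from 68880491 to 68907448, and Lgals3 on chromosome 14 from 47367751 to 47386160. Apoe and Cd9 are read from the minus strand and the other 6 from the plus strand.

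Levels are in CPM, the unique molecular identifiers (UMIs, each standing for 1 captured transcript) of a gene per 1000000 UMIs of its cell class. A barcode was kept from 500 UMIs and 300 genes upward, which left 5944 in the ketogenic and 5671 in the normal library, with medians of 3922 and 4200 UMIs and totals of 39758619 and 35623303 UMIs. Both libraries held 7 kept barcodes of the same sequence. Barcodes were sorted into classes by other marker genes, never by any of the 8. Macrophages fell into 4 gates, named by the genes that set them. C1q stands for C1qa, C1qb and C1qc. Arg1 genes are Arg1, Bnip3, Ero1l, Vegfa, Slc2a1, Ndrg1 and Mmp12 taken as a sum. A barcode could therefore enter an Arg1 gate without an Arg1 UMI. C1q macrophages numbered 268 in the ketogenic and 684 in the normal library, macrophages with both C1q and Arg1 genes 64 and 109, Arg1 macrophages 120 and 167, and C1q-low macrophages, which carried other macrophage genes, 43 and 127. Monocytes fell into a Chil3 gate of 541 and 402 barcodes and an interferon gate of 625 and 841. Natural killer (NK) cells numbered 1687 and 958. Barcodes with genes of more than 1 lineage, 1151 and 1139, were set aside, although they held 41.2% of Trem2 UMIs in the ketogenic and 38.7% in the normal library. Barcodes of at most 100 UMIs were read as free RNA.

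The signature was not carried by macrophages alone. Macrophage gates held 39.0% of Trem2 UMIs in the ketogenic and 46.7% in the normal library, and 36.2% and 47.0% of Apoe UMIs. Of Spp1 UMIs they held 7.9% in the ketogenic and 12.8% in the normal library, against 37.6% and 31.4% in NK cells and 17.5% and 12.4% in non-immune cells. The non-immune class numbered 70 barcodes in the ketogenic and 57 in the normal library and carried Rhox5, a homeobox gene used here as a tumor marker, at 1106 and 1034 CPM. Of Cd63 UMIs, 37.0% in the ketogenic and 23.4% in the normal library were in non-immune cells, against 10.5% and 23.7% in macrophage gates. Of Cd9 UMIs, NK cells held 17.5% in the ketogenic and 11.1% in the normal library. Of all kept UMIs, NK cells held 20.5% in the ketogenic and 15.2% in the normal library. Macrophage gates held 5.2% and 14.5% of all kept UMIs, and non-immune cells 6.4% and 5.3%. The Cd9 share of NK cells was thus below their share of all UMIs, and their Spp1 share above it. Over 15 classes with at least 20 barcodes in both libraries, Trem2, Gpnmb, Apoe, Lpl and Lgals3 had their highest level in a macrophage gate in both libraries. Spp1 did so in the ketogenic library and was highest in non-immune cells in the normal library, while Cd9 was highest in neutrophils and Cd63 in mature dendritic cells in both. The ketogenic rank of Spp1 rests on single barcodes. Without the top barcode, macrophages with both C1q and Arg1 genes were at 2058 CPM and C1q-low macrophages at 1406 CPM, both below the 2445 CPM of all non-immune cells. The label therefore fits the highest class of 5 of the 8 genes in both libraries.

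**Figure D1:**
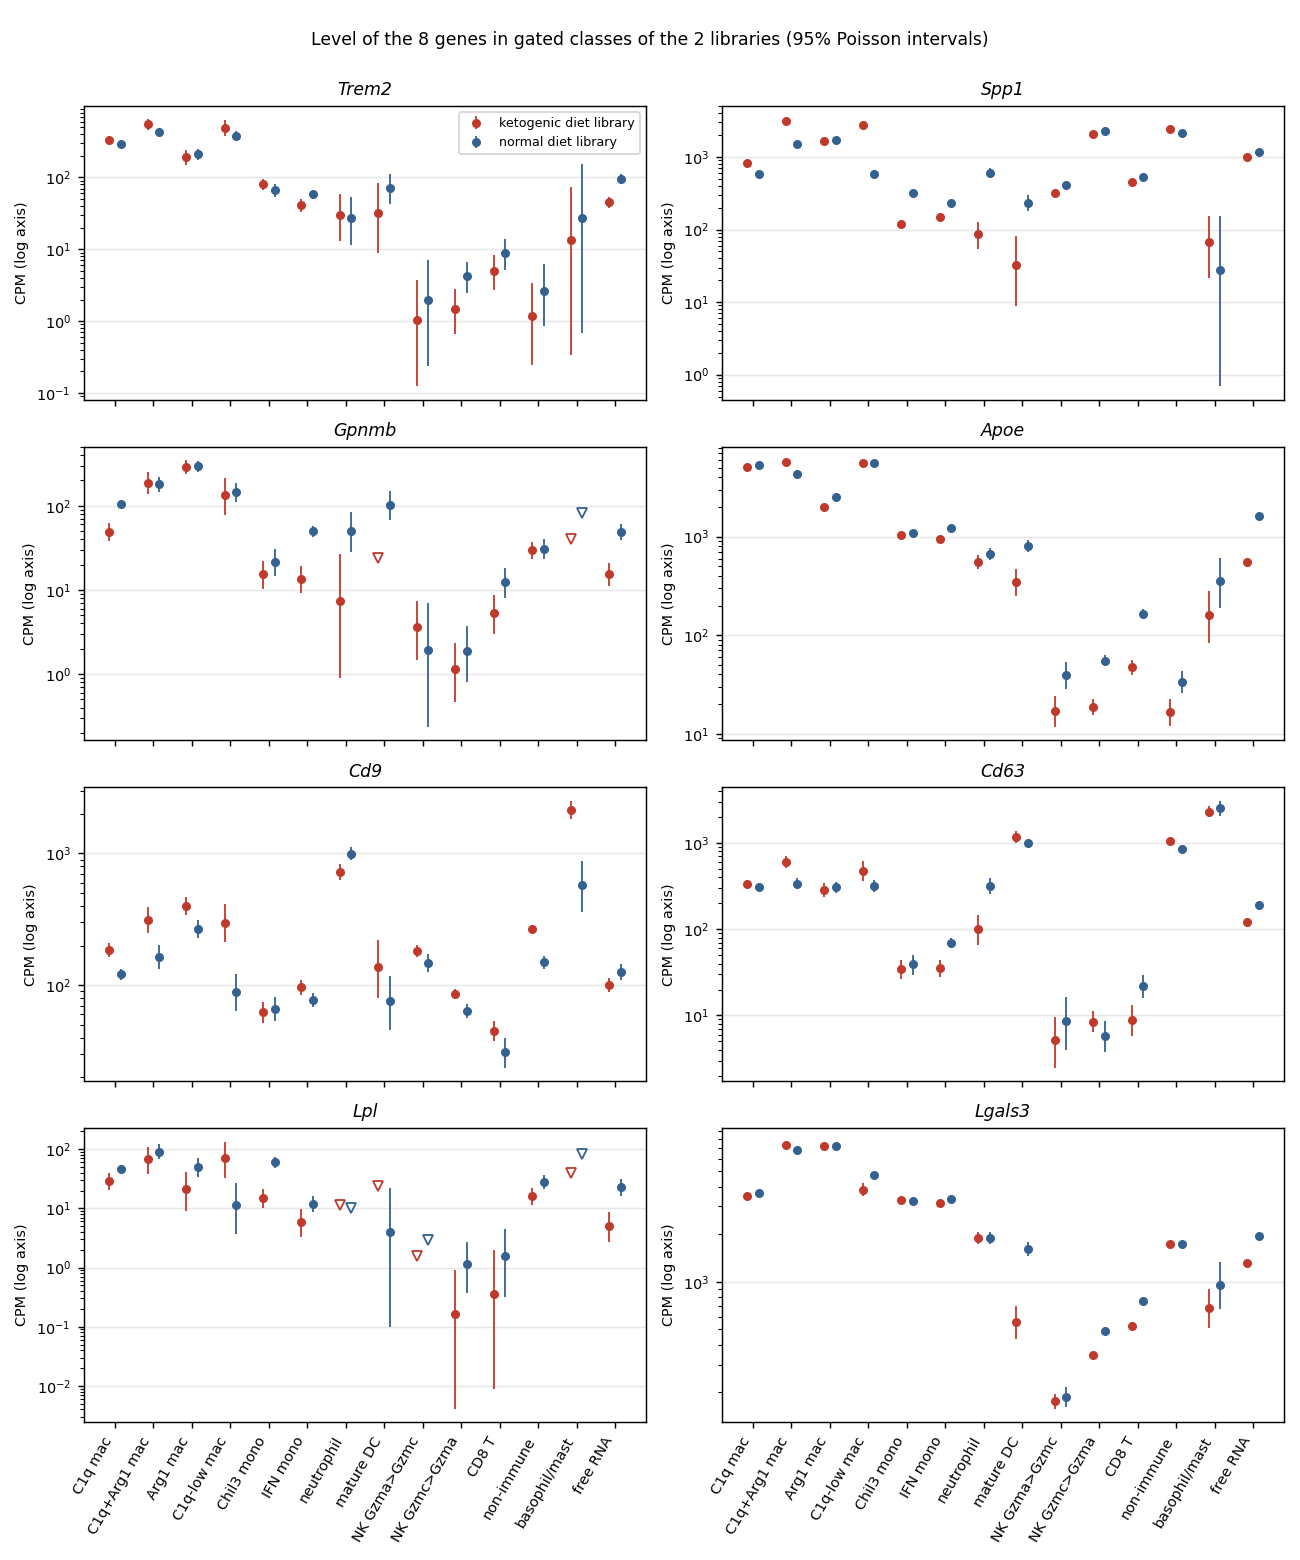
Level of each of the 8 genes in CPM (vertical log axis, a scale of its own in each panel) in 13 gated classes and in free RNA (horizontal axis; mac is macrophage, mono monocyte, IFN interferon), with the ketogenic diet library in red on the left and the normal diet library in blue on the right of each pair. Points are class sums with 95% Poisson intervals, and open triangles mark classes with no UMI, drawn at the level of 3 counts. Trem2 and Apoe are high in the macrophage gates, while Spp1 is higher in NK cells with more Gzmc than Gzma, 2071 and 2282 CPM, than in Arg1 macrophages, 1645 and 1712 CPM.

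Trem2, the lipid receptor, was highest in macrophages with both C1q and Arg1 genes, at 546 (456 to 648) CPM in the ketogenic and 428 (375 to 487) CPM in the normal library. C1q-low macrophages followed at 488 and 383 CPM, C1q macrophages at 327 and 295 CPM, and Arg1 macrophages at 192 and 211 CPM. The order of the 4 gates was the same in both libraries, and the top pair did not differ beyond counting error in either. Chil3 monocytes had 80.2 CPM in the ketogenic and 66.0 CPM in the normal library, and interferon monocytes 41.3 and 58.2 CPM. In NK cells Trem2 was at 1.35 CPM in the ketogenic and 3.71 CPM in the normal library, against 45.01 and 96.4 CPM in free RNA. Trem2 was thus lower in both monocyte gates than in any macrophage gate, and lower in NK cells than in free RNA.

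Apoe, the lipid carrier, was also high in 3 of the 4 macrophage gates. Macrophages with both C1q and Arg1 genes had 5691 CPM in the ketogenic and 4301 CPM in the normal library. C1q-low macrophages had 5591 CPM in the ketogenic and 5541 CPM in the normal library, and C1q macrophages 5066 and 5306 CPM. Arg1 macrophages were the lowest of the 4 gates for Apoe as for Trem2 in both libraries. In them Apoe was at 1984 and 2514 CPM, in Chil3 monocytes at 1036 and 1079 CPM, and in interferon monocytes at 941 and 1235 CPM. NK cells had 18.4 CPM in the ketogenic and 52.4 CPM in the normal library. Across 32 sums, each of 1 class in 1 library with at least 20 barcodes, the log2 levels of Trem2 and Apoe had a Pearson correlation of 0.96, the highest of the 28 pairs of the 8 genes. The lowest was 0.17, between Spp1 and Apoe, and Spp1 and Trem2 had 0.33. These sums share libraries and gates, so the values describe these classes and no more.

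Of the 7206 genes compared, those with the pattern most like Trem2 were Ms4a7, a membrane protein of macrophages (0.96), Ccl12, a monocyte-attracting chemokine of mice (0.95), and C3ar1, the receptor of complement C3a (0.94). Most like Apoe were C3ar1 (0.95), Apobec1, an RNA-editing deaminase (0.95), and Adgre1, which encodes the F4/80 antigen (0.95). Ms4a7 and Adgre1 were among the genes that set the gates. Spp1 was most like Mthfd1l, a mitochondrial folate enzyme (0.84), Mif, a secreted inhibitor of macrophage migration (0.82), and Mt2, a metallothionein (0.78). Gpnmb was most like P4ha1, a collagen prolyl hydroxylase subunit (0.88), Tmem86a (0.84) and Mmp14, a membrane-bound matrix protease (0.83). Lgals3 was most like Fam129b (0.94), Emp1 (0.93) and Soat1, which esterifies cholesterol (0.93), and Lpl was most like Myof (0.89), Emp1 (0.84) and Cmtm3 (0.83). Cd9 had Klf7 (0.85), Ier3 (0.82) and Id1 (0.79) nearest to it, and Cd63 had Ier3, Anxa3 and Mcfd2 (each 0.78).

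Trem2 and Apoe are shown here by promoter because their levels ran together over the classes, and Spp1 because its level did not. The 250 bases before a start site, from the RefSeq promoter table on GRCm38.p6, were matched for 7 of the 8 genes. Capitals mark matches, on either strand, to GAGGAA, a core bound by the macrophage factor PU.1, to TGANTCA, an AP-1 site, or to TATAAA, the TATA box, none of which overlap here. The Trem2 window is chr17:48346151-48346400 (plus strand), the first Apoe window chr7:19699189-19699438 (minus strand) and the first Spp1 window chr5:104434861-104435110 (plus strand).
Trem2: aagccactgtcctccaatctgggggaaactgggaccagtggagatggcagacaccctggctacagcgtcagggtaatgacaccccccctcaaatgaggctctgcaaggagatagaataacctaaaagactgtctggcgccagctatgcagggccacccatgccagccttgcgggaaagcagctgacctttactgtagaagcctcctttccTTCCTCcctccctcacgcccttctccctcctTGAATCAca
Apoe: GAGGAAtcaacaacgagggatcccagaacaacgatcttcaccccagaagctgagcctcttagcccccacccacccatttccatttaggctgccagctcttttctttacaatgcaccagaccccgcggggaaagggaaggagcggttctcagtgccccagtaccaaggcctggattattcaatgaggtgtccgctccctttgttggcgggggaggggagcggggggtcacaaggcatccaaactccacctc
Spp1: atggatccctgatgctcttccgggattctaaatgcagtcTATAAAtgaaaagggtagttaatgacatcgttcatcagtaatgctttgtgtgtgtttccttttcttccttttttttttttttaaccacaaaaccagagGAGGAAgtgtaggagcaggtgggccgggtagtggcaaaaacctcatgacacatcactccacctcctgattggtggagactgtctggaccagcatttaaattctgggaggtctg

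Trem2 had 1 match to TGANTCA that began 9 bases before the start, and 1 to GAGGAA, read on the minus strand as TTCCTC, 40 bases before it. The first Apoe window had 1 match to GAGGAA at its far end. The first Spp1 window had 1 to GAGGAA 113 bases and 1 to TATAAA 211 bases before the start. Of the Apoe windows not shown, 1 had 2 matches to TATAAA, 100 and 96 bases before its start, and 1 had a GAGGAA match 132 bases before. The Spp1 window not shown had no match. GAGGAA was found in 23.4% of 32536 promoter windows of that length, TGANTCA in 6.73% and TATAAA in 12.3%. CACGTG, the E-box core, and TCACATGA, the M-box of MITF-family factors, were in 6.04% and 0.851% of windows and in none of the windows of the 7 matched genes. A window of 300 bases that ran 50 bases past the start was searched first, and there Gpnmb had a TGANTCA match 9 bases past its start. A match describes letters in a window and was not tested as a binding site.

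Spp1, which encodes osteopontin, had its highest level among macrophages in the gate with both C1q and Arg1 genes in the ketogenic library, at 3104 CPM, against 1521 CPM in the normal library. Arg1 macrophages had 1645 CPM in the ketogenic and 1712 CPM in the normal library, and C1q macrophages 817 and 575 CPM. C1q-low macrophages had 2784 CPM in the ketogenic and 590 CPM in the normal library. Spp1 was thus unevenly spread over macrophages, and the order of the gates differed between the libraries. It was also concentrated in few cells, since the 10% of C1q macrophages with the most Spp1 UMIs held 75.7% of their Spp1 UMIs in the ketogenic and 72.3% in the normal library.

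NK cells had more Spp1 than C1q macrophages in both libraries, at 1636 (1608 to 1664) CPM in the ketogenic and 1892 (1856 to 1930) CPM in the normal library. When NK cells were split after this had been seen, those with more UMIs of Gzmc, which encodes granzyme C, than of Gzma, which encodes granzyme A, had 2071 and 2282 CPM. Those with more Gzma than Gzmc, 762 barcodes in the ketogenic and 366 in the normal library, had 324 and 408 CPM. Spp1 in NK cells was therefore higher in the Gzmc-dominant ones in both libraries. These numbered 888 barcodes in the ketogenic and 570 in the normal library, with median depths of 6006.5 and 6609 UMIs. The Gzma-dominant ones had medians of 1981 and 2249.5 UMIs, and the part of depth in this difference was not tested. Free RNA had 997.5 CPM in the ketogenic and 1164 CPM in the normal library. Apoe in NK cells stood at 3.35% of its free-RNA level in the ketogenic and 3.24% in the normal library, and free RNA at those shares carries 33.4 and 37.8 CPM of Spp1. Rhox5 was at 1.47 CPM in NK cells of the ketogenic and 2.22 CPM in those of the normal library. Rhox5 was among the genes that set aside mixed barcodes, so its low level in NK cells follows in part from the gates. Barcodes of NK cells rich in myeloid genes had been set aside too, so the low Apoe level may follow in part from the gates. The part of free RNA in the Spp1 of NK cells was not tested. CD8 T cells had 458 and 538 CPM of Spp1, and non-immune cells 2445 and 2154 CPM.

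Gpnmb, the lysosomal glycoprotein, was highest in Arg1 macrophages, at 292 (240 to 351) CPM in the ketogenic and 297 (254 to 344) CPM in the normal library. Macrophages with both C1q and Arg1 genes had 189 and 182 CPM, and C1q-low macrophages 134 and 145 CPM. C1q macrophages were the lowest of the 4 gates in both libraries, at 49.2 and 104 CPM. Chil3 monocytes had 15.5 CPM in the ketogenic and 21.3 CPM in the normal library. Gpnmb thus had its highest level in the gate where Apoe and Trem2 were lowest.

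Lgals3 was highest in the macrophage gates that carried Arg1 genes. Macrophages with both C1q and Arg1 genes had 7350 CPM of this galectin gene in the ketogenic and 6791 CPM in the normal library, and Arg1 macrophages 7180 and 7270 CPM. C1q-low macrophages had 3830 and 4747 CPM. C1q macrophages had 3511 and 3657 CPM, close to the 3269 and 3257 CPM of Chil3 monocytes and the 3152 and 3320 CPM of interferon monocytes. Lgals3 therefore differed less between C1q macrophages and monocytes than between either and the gates with Arg1 genes. In the normal library C1q-low macrophages lay in between. Neutrophils had 1884 CPM in the ketogenic and 1890 CPM in the normal library, and NK cells 304 and 429 CPM.

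Cd9 and Cd63, the tetraspanins, had their highest levels outside the macrophages. Basophils or mast cells, 40 barcodes in the ketogenic and 19 in the normal library, had 2156 and 576 CPM of Cd9 and 2317 and 2524 CPM of Cd63. Neutrophils had 727 CPM of Cd9 in the ketogenic and 996 CPM in the normal library. Mature dendritic cells had 1184 CPM of Cd63 in the ketogenic and 992 CPM in the normal library, and non-immune cells 1054 and 855 CPM. Cd63 in NK cells was at 7.73 CPM in the ketogenic and 6.30 CPM in the normal library, so it was low where Spp1 was high. Among macrophages Cd9 was highest in the Arg1 gate, at 399 and 266 CPM, and Cd63 in the gate with both C1q and Arg1 genes, at 605 and 337 CPM.

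Lpl, the lipoprotein lipase, was the sparsest of the 8 genes, with 71 UMIs in the macrophage gates of the ketogenic and 252 in those of the normal library. Macrophages with both C1q and Arg1 genes had 67.2 and 90.8 CPM, and C1q macrophages 28.7 and 46.6 CPM. In neutrophils no Lpl UMI was counted in either library, which allows levels of up to 11.2 CPM in the ketogenic and 10.1 CPM in the normal library by counting error.

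**Figure D2:**
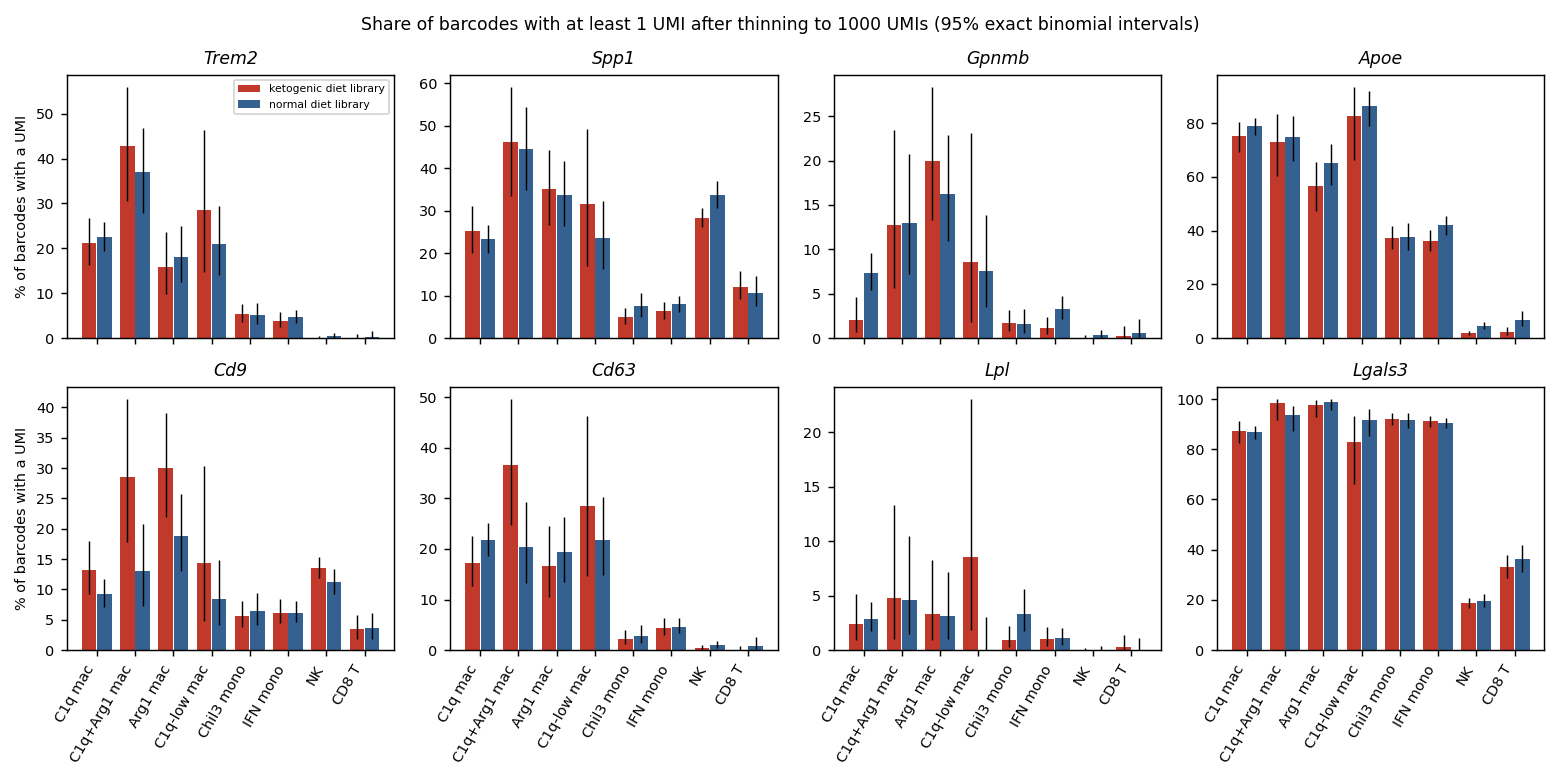
Share of barcodes with at least 1 UMI of each gene (vertical axis in percent, from 0, a scale of its own in each panel) in 8 classes after each barcode was thinned to 1000 UMIs, ketogenic diet library in red on the left and normal diet library in blue on the right. Bars are shares and lines exact 95% binomial intervals. Trem2, Apoe and Cd63 bars are far lower in NK cells than in macrophages, whereas Spp1 bars are at 28.2% and 33.8% in NK cells, and the Gpnmb bars of C1q macrophages are at 2.0% and 7.28%.

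Each barcode was thinned to 1000 UMIs to compare shares of cells at 1 depth. In the macrophage gates 468 barcodes of the ketogenic and 1046 of the normal library were deep enough, and 27 and 41 were left out. At least 1 Trem2 UMI was found in 23.3% (19.5 to 27.4) of macrophages in the ketogenic and 23.1% (20.6 to 25.8) in the normal library, against 46.3% and 52.9% before thinning. In NK cells the thinned share was 0.124% and 0.431%, with median depths of 3614 and 4546.5 UMIs against 3583 and 4019 UMIs in macrophages. For Apoe the macrophage shares were 70.7% and 77.2%, against 1.80% and 4.53% in NK cells. Trem2 and Apoe were thus found in macrophages far more often than in cells that should lack them. For Gpnmb the shares were 8.55% and 9.27% and for Lpl 3.42% and 2.77%, so most macrophages showed neither at this depth. Cd9 was found in 19.7% (16.2 to 23.6) of macrophages in the ketogenic and 11.0% (9.16 to 13.05) in the normal library. For Spp1 the shares were 31.0% (26.8 to 35.4) and 27.1% (24.4 to 29.9). These intervals are over cells of 1 library each and do not compare the diets. The median macrophage held UMIs of 3 of the 8 genes in the ketogenic and of 2 in the normal library, and 2.56% and 1.34% held 6 or more. Few macrophages therefore showed the full signature at 1000 UMIs.

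Within macrophages, pairs of the genes differed in how often both were found in 1 barcode. Spp1 and Gpnmb were both found in 25 thinned macrophages of the ketogenic and 43 of the normal library, 2.02 and 1.64 times the product of the single shares. Trem2 and Spp1 were found together 1.39 and 1.28 times as often as that product, and Spp1 and Apoe 1.004 and 1.03 times. These values rest on sparse counts of cells from 1 library each and are given as a description.

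**Figure D3:**
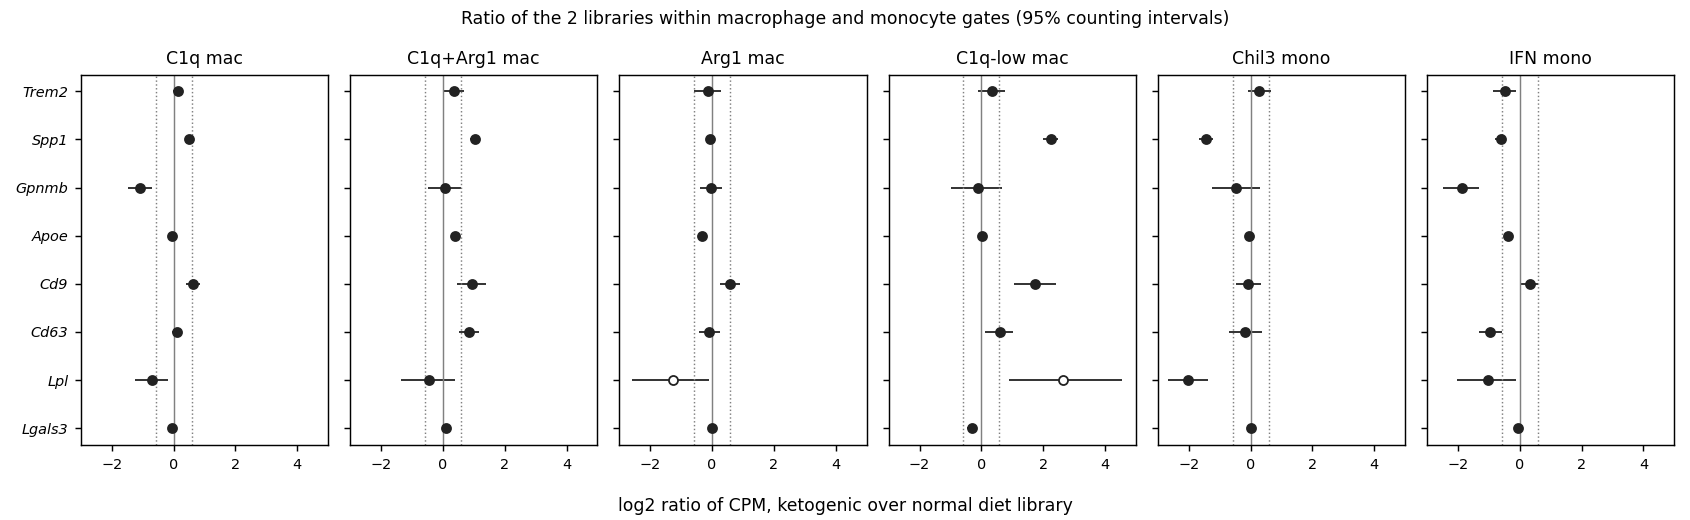
Log2 ratio of the level in the ketogenic over the normal diet library (horizontal axis, no pseudocount) for each gene (rows) in 4 macrophage and 2 monocyte gates (panels), with 95% intervals for counting error. Filled points had at least 50 UMIs over both libraries, open points fewer, and dotted lines mark a ratio of 1.5 in either direction. Trem2, Apoe and Lgals3 lie between the dotted lines in every panel, while Spp1 lies to the right in 2 macrophage gates and to the left in both monocyte gates.

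Between the diets, Trem2 in macrophages differed little. Over all macrophage gates it was at 337 CPM in the ketogenic and 306.5 CPM in the normal library, a ratio of 1.10 (1.01 to 1.204). Its log2 ratio with the pseudocount lay between −0.19 and 0.25 over the other settings, so its direction is not settled. Apoe was at 4603 and 4900 CPM, a ratio of 0.939 (0.917 to 0.962), and Lgals3 at 4648 and 4490 CPM, a ratio of 1.04 (1.01 to 1.06). None of these came near the size set for a call, which was 1.5-fold after 10 CPM had been added to both levels, in genes with at least 50 UMIs over both libraries. Across all candidate barcodes, Trem2 was at 45.1 CPM in the ketogenic and 95.3 CPM in the normal library, a ratio of 0.473 (0.446 to 0.501). Over all candidate barcodes 4 of the 8 genes, Trem2, Gpnmb, Apoe and Lpl, were called lower, beside 2.29% of all measured genes, and none higher, beside 0.329%. These lower totals stood beside macrophage gates that held 5.2% of kept UMIs in the ketogenic and 14.5% in the normal library. Apoe across all candidate barcodes was at 661.5 and 1515 CPM.

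Pooled over the macrophage gates, Spp1 and Cd9 were higher in the ketogenic library, but neither was called in C1q or in Arg1 macrophages. Spp1 had ratios of 1.42 and 0.961 there, and in the other gates its ketogenic level leaned on single barcodes, as given below. The mix of gates differed too, with 120 of 495 macrophages in the Arg1 gate of the ketogenic and 167 of 1087 in that of the normal library. The part of this mix in the pooled ratios was not tested. Over all macrophage gates Spp1 was at 1353 (1304 to 1404) CPM in the ketogenic and 806 (781 to 830.5) CPM in the normal library, a ratio of 1.68 (1.60 to 1.76). Cd9, a tetraspanin that organizes membrane receptors, was at 247 and 139.5 CPM, a ratio of 1.77 (1.58 to 1.99). These 2 of the 8 genes passed 1.5-fold upward, beside 0.709% of all 8043 measured genes, and none passed it downward, beside 3.32%. When barcodes of mixed lineage were kept in the macrophage gates, neither gene passed. Mitochondrial genes took 1.03% of UMIs in these gates of the ketogenic and 1.66% in those of the normal library, and the part of this in the result was not tested. NK cell genes summed to 47.2 to 126 CPM over the 4 macrophage gates of the ketogenic and 72.4 to 134 CPM over those of the normal library. Gzmc in macrophages was at 0.554% and 0.469% of its NK level, and NK RNA at those shares carries 9.06 and 8.87 CPM of Spp1. Barcodes rich in NK cell genes had been set aside as mixed lineage, so low NK values in macrophages follow in part from the gates. The part of NK RNA in Spp1 was not tested.

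By gate, C1q macrophages held Spp1 at a ratio of 1.42 (1.32 to 1.53), under 1.5-fold without the pseudocount too. Cd9 was at 186 and 121 CPM, a ratio of 1.54 (1.31 to 1.80), just short of a call once the pseudocount was added. Gpnmb was lower there, at 49.2 CPM in the ketogenic and 104 CPM in the normal library, a ratio of 0.473 (0.357 to 0.616). It was the single one of the 8 called lower, beside 4.92% of all measured genes, and none was called higher, beside 1.13%. Lpl, at 28.7 and 46.6 CPM, a ratio of 0.617 (0.422 to 0.881), was short of a call only once the pseudocount was added. Leaving out the barcode with the most Gpnmb UMIs gave 40.2 CPM in the ketogenic and 99.6 CPM in the normal library. The log2 ratio with the pseudocount, −0.95, lay between −1.38 and −0.80 over the other settings tried.

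Macrophages with both C1q and Arg1 genes had 3 of the 8 genes higher in the ketogenic library, beside 4.33% of measured genes, and none lower, beside 13.6%. Spp1 had a ratio of 2.04 (1.84 to 2.26), but 1 barcode held 35.9% of its ketogenic UMIs, and without the top barcode of each library the levels were 2058 and 1391 CPM, short of a call. Cd9 was at 315 and 165 CPM, a ratio of 1.91 (1.39 to 2.63). Cd63, a tetraspanin of late endosomes, was at 605 and 337 CPM, a ratio of 1.79 (1.43 to 2.24). With the marker floors doubled, which left 27 barcodes in the ketogenic and 37 in the normal library, none of the 3 passed.

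Arg1 macrophages had none of the 7 measured genes called in either direction, beside 3.29% of measured genes higher and 9.32% lower. Cd9 came closest, at 399 and 266 CPM, a ratio of 1.501 (1.19 to 1.89), short of a call with the pseudocount. In C1q-low macrophages Spp1, at a ratio of 4.72 (4.01 to 5.57), and Cd9, at 299 and 89.5 CPM, a ratio of 3.34 (2.08 to 5.36), were higher, 2 of 7 measured genes beside 4.92% of all. None was lower, beside 12.5%. A single barcode held 52.0% of the Spp1 UMIs of the 43 ketogenic C1q-low macrophages, and without the top barcodes the levels were 1406 and 460.5 CPM.

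**Figure D4:**
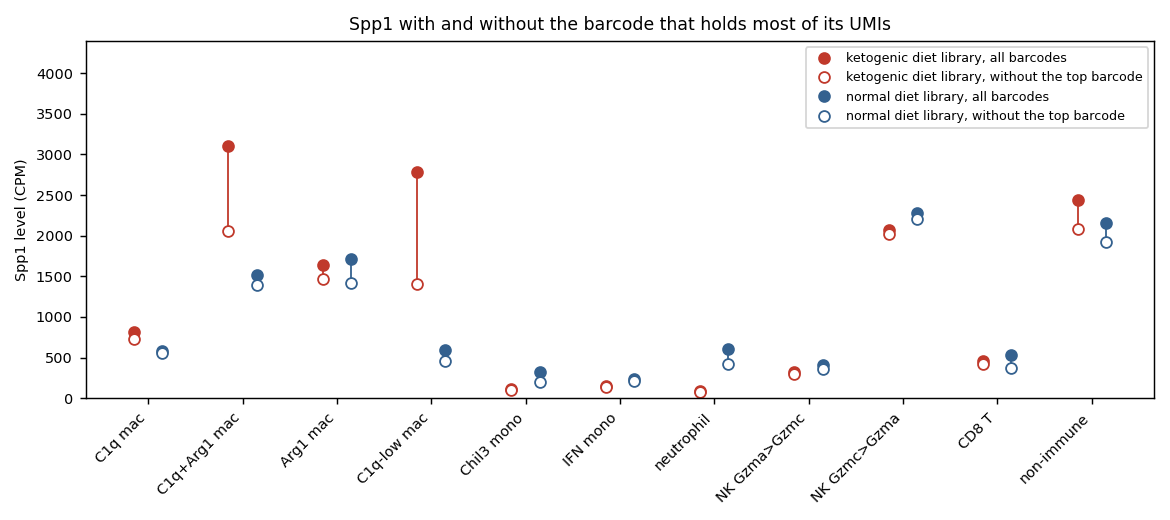
Spp1 level in CPM (vertical axis, from 0) in 11 classes (horizontal axis), ketogenic diet library in red on the left and normal diet library in blue on the right of each pair. Filled points use all barcodes and open points leave out the barcode with the most Spp1 UMIs, so the line between them is the part that 1 barcode held. The drop is largest in the ketogenic C1q-low macrophages, where the level goes to 1406 CPM, and is small in NK cells.

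In monocytes, those of the 8 genes that passed the size set for a call were lower in the ketogenic library. Over both gates Spp1 was at 137 CPM in the ketogenic and 259 CPM in the normal library, a ratio of 0.528 (0.478 to 0.584). Gpnmb was at 14.4 and 41.0 CPM, a ratio of 0.351 (0.259 to 0.470), and Lpl at 9.90 and 26.8 CPM, a ratio of 0.370 (0.255 to 0.528). Cd63 was at 35.1 and 59.8 CPM, a ratio of 0.588 (0.479 to 0.719). These 4 of 8 genes stand beside 2.93% of measured genes lower, and none of the 8 was higher, beside 0.646%. The C1q-type macrophage markers summed to 1416 CPM in the ketogenic and 1888 CPM in the normal library in Chil3 monocytes, and to 1615 and 2096 CPM in interferon monocytes. These sums were lower in the ketogenic library, as the 4 genes were, and their part in the result was not tested. Over the other settings Spp1 lost its call in 3 of 12, Cd63 in 2 and Lpl in 1, while Gpnmb kept it in all 12.

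The monocyte counts also depend on a gate that was added after the levels had been seen. Without the C1q-low macrophage gate, the monocyte gates held 1190 barcodes in the ketogenic and 1329 in the normal library, and 3 of the 8 genes were lower over both monocyte gates. Under the same gates 239 of all measured genes were lower and 55 higher, against 231 and 51 of 7891 with the C1q-low gate. The number of genes measured without that gate was not recorded, so no share is given. Spp1 was then at 195 CPM in the ketogenic and 277 CPM in the normal library, a ratio of 0.703 (0.645 to 0.766), short of a call, while Gpnmb, Cd63 and Lpl still passed.

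By gate, 2 of the 8 genes were lower in Chil3 monocytes of the ketogenic library, beside 6.07% of measured genes, and none was higher, beside 0.915%. Spp1 was at 119 CPM in the ketogenic and 323 CPM in the normal library, a ratio of 0.370 (0.314 to 0.434), and 1 normal barcode held 38.6% of its UMIs there. Without the top barcodes the levels were 99.7 and 199 CPM. Lpl was at 14.97 and 60.5 CPM, a ratio of 0.247 (0.156 to 0.382). Both calls were lost with the marker floors doubled.

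In interferon monocytes 3 of the 8 genes were lower, beside 3.45% of measured genes, and none was higher, beside 0.682%. Gpnmb was at 13.5 CPM in the ketogenic and 49.5 CPM in the normal library, a ratio of 0.272 (0.180 to 0.400), and passed under each of the 12 other settings tried. Cd63 was at 35.4 and 68.7 CPM, a ratio of 0.515 (0.396 to 0.664), and lost its call in 2 of 12 settings. Spp1 was at 151 and 231 CPM, a ratio of 0.652 (0.574 to 0.740), and lost its call in 5 of 12, including the gates without the C1q-low class.

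Outside macrophages and monocytes, some of the 8 genes also passed 1.5-fold, mostly downward. In NK cells Spp1 had a ratio of 0.864 (0.842 to 0.887) and Cd9 one of 1.38 (1.23 to 1.56). Apoe was the 1 of 5 measured genes called lower in NK cells, beside 0.56% of all measured genes, and none was called higher, beside 0.165%. Apoe in free RNA was at 549 CPM in the ketogenic and 1617 CPM in the normal library, a ratio of 0.340 (0.318 to 0.362). The part of free RNA in the Apoe call of NK cells was not tested. In neutrophils Spp1 was at 85.8 and 601 CPM and Cd63 at 101 and 317 CPM, 2 of 5 measured genes lower beside 11.8% of all and none higher beside 9.34%. The Spp1 value rested on 23 UMIs in the ketogenic and 178 in the normal library. In non-immune cells Cd9 was higher, at 267 and 149 CPM, a ratio of 1.79 (1.55 to 2.06), 1 of 7 measured genes beside 1.45% of all. Apoe was lower there, at 16.5 and 33.6 CPM, again 1 of 7, beside 2.42%. The Apoe calls in NK and non-immune cells were lost with free RNA subtracted at 5%, which takes away more Apoe than either class held. CD8 T cells had 2 of 5 measured genes lower, Apoe at 47.4 and 165 CPM and Cd63 at 8.90 and 22.1 CPM, beside 2.13% of all, and none higher, beside 0.877%. In mature dendritic cells, 39 barcodes in the ketogenic and 49 in the normal library, Spp1 at 32.2 and 235 CPM, Apoe at 346 and 800.5 CPM and Lgals3 at 556 and 1617 CPM were lower. That was 3 of 4 measured genes beside 19.1% of all, and none was higher, beside 9.44%. The Spp1 value rested on 4 UMIs in the ketogenic and 59 in the normal library. Macrophage genes were lower in the same class, with C1qa at 0 and 482 CPM, C1qb at 0 and 454 CPM, C1qc at 0 and 311 CPM and Lyz2 at 1297 and 2549 CPM, and their part in these values was not tested.

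Other genes of the pathway were read from 7 lists. Over the macrophage gates 0.709% of all measured genes were higher and 3.32% lower in the ketogenic library, to set beside the counts below. Of 15 genes of TREM2 signaling, all measured over the macrophage gates, 1 was higher and none lower in the ketogenic library. It was Ms4a4a, a membrane protein gene of the Ms4a cluster, at 19.8 CPM in the ketogenic and 9.66 CPM in the normal library, named because the count is so small. Tyrobp, the TREM2 adaptor, was at 3442 CPM in the ketogenic and 2981 CPM in the normal library, a ratio of 1.15 (1.12 to 1.19). The list's median log2 ratio was −0.18, against −0.10 over all measured genes. Of 21 genes of the lipid-associated program 20 were measured, of which 1 was higher and 1 lower, with a median of −0.01. The higher one was Fabp4, a fatty acid binding protein of adipocytes and macrophages, at 25.1 and 8.31 CPM. The lower one was Axl, a receptor for apoptotic cells, at 116 and 190 CPM, a ratio of 0.610 (0.527 to 0.703). Fabp5, another fatty acid binding protein, was at 1149 and 1048 CPM, Plin2, which coats lipid droplets, at 923 and 748 CPM, and Cd36, a fatty acid and lipoprotein receptor, at 45.9 and 37.5 CPM, none of them called.

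Of 16 measured genes of lipoprotein handling 1 was higher in macrophages, beside 0.709% of all measured genes, and none lower, beside 3.32%. It was Hilpda, an inhibitor of lipid droplet lipolysis, at 501 CPM in the ketogenic and 309 CPM in the normal library, a ratio of 1.62 (1.5 to 1.76). In monocytes Hilpda was at 158 and 78.0 CPM, a ratio of 2.02 (1.78 to 2.30), while Abca1, the cholesterol efflux pump, was lower at 15.6 and 30.3 CPM, a ratio of 0.513 (0.378 to 0.691). None of 20 lysosome genes, 11 osteopontin receptor and processing genes, 11 tetraspanin and vesicle genes or 4 galectins was called in either direction over the macrophage gates. Cd44, an osteopontin receptor, was at 285 CPM in the ketogenic and 267 CPM in the normal library. In C1q macrophages alone Cd81, a tetraspanin, was higher at 118 and 67.4 CPM, Csf1, the macrophage growth factor, was lower at 10.6 and 27.5 CPM, and Atp6v1a, a proton pump subunit, was lower at 91.5 and 149 CPM.

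By gate, the related genes with the widest differences were not the same. Macrophages with both C1q and Arg1 genes had Fn1, the fibronectin gene, at 130 CPM in the ketogenic and 395 CPM in the normal library. They had Anxa1, an annexin, at 445 and 252 CPM, Mmp12, the macrophage elastase, at 974 and 597 CPM, and Hilpda at 1105 and 684 CPM. Fn1 and Mmp12 were also among the genes that set the gates. The 4 related genes named in Arg1 macrophages were all lower, in a gate where no list had a gene called higher. Of all measured genes 9.32% were lower there and 3.29% higher. Abca1 was at 76.2 and 148 CPM, Ms4a7 at 405 and 729.5 CPM and Mmp14 at 86.7 and 158 CPM. Pdcd6ip, which encodes the vesicle protein ALIX, was at 94.6 and 160.1 CPM. C1q-low macrophages had Thbs1, the thrombospondin 1 gene, at 228 and 558 CPM and Hexa, a lysosomal hexosaminidase subunit, at 134 and 257 CPM, both lower. They also had Axl lower, at 126 and 202 CPM, and Hilpda higher, at 315 and 177 CPM.

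Chil3 monocytes had Plcg2 and Syk, which signal downstream of TREM2 and TYROBP, lower in the ketogenic library. Plcg2 was at 79.1 and 140 CPM and Syk at 115 and 193 CPM. Mmp14 was lower as well, at 28.3 and 52.3 CPM. Interferon monocytes had Hilpda at 215 CPM in the ketogenic and 82.9 CPM in the normal library, a ratio of 2.59 (2.23 to 3.01). In the same cells Ms4a7 was lower at 86.5 and 190.0 CPM, Axl at 75.5 and 137 CPM and Mmp14 at 51.9 and 94.3 CPM. Tyrobp itself was at 4570 and 3717 CPM over both monocyte gates, and Plin2 at 524 and 403 CPM, neither of them called.

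By list, 1 of 15 measured TREM2 signaling genes was lower over both monocyte gates and none higher, and of 19 lipid-associated program genes 3 were lower. Over all measured genes 2.93% were lower there and 0.646% higher. Of 15 lipoprotein handling genes 1 was higher and 3 were lower, and of 9 osteopontin receptor and processing genes 1 was lower. None of 20 lysosome genes, 10 tetraspanin and vesicle genes or 4 galectins was called there.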

How the data were processed

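The deposited matrices hold counts of UMIs per gene and barcode without normalization, and all barcodes, not only called cells. They name Cell Ranger 4 per the file headers, while the submitters' processing notes list Cell Ranger 6.0.0, Seurat 3.2.0, GRCm38 and mm10. The authors' own cell filters and cell types are not given in the sources used here.

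Candidate barcodes had at least 500 UMIs and 300 genes. Classes were gated per barcode from marker genes, with barcodes of mixed lineage set aside as possible doublets and no doublet caller run. UMIs were summed per class and library and scaled to CPM. Levels carry exact Poisson intervals, ratios exact conditional intervals and shares Clopper-Pearson intervals, at 95%, for counting error only. A gene was measured from 50 UMIs over both libraries and called at a 1.5-fold ratio after 10 CPM were added. For shares, each barcode was thinned to 1000 UMIs. A gene with no UMI was given the limit of 3 counts. Scripts used Python 3.11.15, numpy 2.4.6, scipy 1.17.1 and pandas 2.3.3. On simulated data for C1q macrophages, with 7205 genes measured, the call rule found 100% of 50 genes raised 2-fold. It found 98% of 50 genes set to 0.5 of their level, and called 0.443% of unchanged genes. Changed genes were drawn only from those with at least 500 UMIs, so genes as sparse as Gpnmb and Lpl there were not covered. The counts were Poisson draws, with no clumping in single barcodes and no spread between mice.

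All 8 genes are described. Of the related lists, up to 4 called genes per myeloid class with at least 100 UMIs and the largest log2 ratio were named, plus Tyrobp, Fabp5, Cd36, Plin2, Cd44 and Abca1. A result that this rule names in Chil3 monocytes is not reported here. Genes alike in pattern were the 3 with the highest correlation, among genes with at least 500 UMIs.

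The 8 genes, the lists and the gates were chosen with earlier results of these data known, including a higher Spp1 level in ketogenic macrophages, so that difference has no independent support here. Gate floors were set by hand after counts and an exploratory clustering had been seen. Levels of the 8 genes by class had been seen before the C1q-low macrophage gate was added. NK cells were split by Gzma and Gzmc after Spp1 was seen high in them. The promoter window first ran past the start and was then limited to 250 upstream bases, which removed 1 match in Gpnmb and 1 in Apoe, and a GC-box motif searched at first was dropped.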

Additional observations from a re-analysis of the deposited data

Results flagged for a closer look

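A gene is listed here where it passed 1.5-fold upward in 1 class and downward in another, among classes of at least 20 barcodes in both libraries. The differences between classes were not tested, since each diet has 1 library. That minimum was changed more than once after values had been seen. With none at first, further values were listed, Lgals3 among them, and a stricter minimum of 30 was used before 20.

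For Spp1 the log2 ratio of the ketogenic over the normal library, with the pseudocount, was 1.02 in macrophages with both C1q and Arg1 genes and 2.22 in C1q-low macrophages. It was −1.36 in Chil3 monocytes, −0.59 in interferon monocytes, −2.67 in neutrophils, −2.54 in mature dendritic cells and −2.25 in regulatory T cells. The mature dendritic value rested on 4 UMIs in the ketogenic and 59 in the normal library. The regulatory T value rested on 9 and 65 UMIs in 30 and 29 barcodes, and the share of all genes called there was not counted. Spp1 was thus higher in these 2 macrophage gates and lower in the other classes named. Single barcodes held 35.9% and 52.0% of the ketogenic UMIs in the first 2 classes, and 38.6% of the normal UMIs in Chil3 monocytes.

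For Apoe the log2 ratio was 2.40 in cDC2, from 58 UMIs in the ketogenic and 24 in the normal library. It was −1.19 in mature dendritic cells, −1.14 in NK cells, −1.61 in CD8 T cells, −1.04 in other T cells and −0.72 in non-immune cells. Apoe in free RNA was at 549 CPM in the ketogenic and 1617 CPM in the normal library. With free RNA subtracted at 5%, the log2 ratio became 0.00 in NK and in non-immune cells, and both calls were lost. That setting takes away more Apoe than these classes held in either library, so it could give no other value. The part of free RNA was not tested in any of these classes. C1qa, a macrophage gene, was at 0 and 482 CPM in mature dendritic cells, 3.56 and 15.2 CPM in NK cells and 17.1 and 41.2 CPM in CD8 T cells, and its part was not tested either.

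For Cd63 the log2 ratio was 0.82 in macrophages with both C1q and Arg1 genes, −0.79 in interferon monocytes, −1.56 in neutrophils and −0.77 in CD8 T cells.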

How the results depend on the processing

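No paired analysis was possible because each diet has 1 library. Under other settings, 704 of 881 log2 ratios of the 8 genes stayed inside the counting interval of the reported ratio and 177 moved. That interval is wide for sparse genes, such as ratios of 0.507 to 1.60 for Gpnmb in C1q-low macrophages. Of the called values, 0 changed sign. The causes of the changes were not tested.

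Counts of the 8 genes past 1.5-fold were recomputed for 3 of the macrophage gates, all macrophage gates and both monocyte gates. In C1q macrophages, 0 higher became 2 with TMM scaling or doubled marker floors and 1 with mitochondrial and ribosomal genes left out, thinning, free RNA subtracted or a pseudocount of 1 CPM. The 1 lower there became 2 with the mean of barcode CPM, mixed barcodes kept, the top barcode left out or a pseudocount of 1 CPM. Of all genes in this gate, 81 higher became 136 with TMM, 58 with doubled floors and 193 with that pseudocount. They became 91 with free RNA subtracted, 96 with thinning and 96 without mitochondrial and ribosomal genes. Likewise 354 lower became 504 with the mean of barcode CPM, 155 with mixed barcodes kept and 897 with that pseudocount. In macrophages with both C1q and Arg1 genes, 3 higher became 0 with doubled floors and 2 with thinning, the top barcode left out or at least 200 UMIs. Of all genes in this gate, 98 higher became 56 with doubled floors, 58 with thinning and 34 with at least 200 UMIs. In Arg1 macrophages, 0 higher became 1 with at least 1000 UMIs per barcode, TMM or the mean of barcode CPM and 2 with thinning, and 0 lower became 1 when genes with at least 1 UMI were counted. Of all genes in this gate, 88 higher became 86, 134 and 100 with the first 3 settings and 59 with thinning. Likewise 249 lower became 1498 when genes with at least 1 UMI were counted. Over all macrophage gates, 2 higher became 0 and 0 lower became 1 with mixed barcodes kept. Of all genes there, 57 higher became 67 and 267 lower became 135 with mixed barcodes kept. Over both monocyte gates, 4 lower became 1 with thinning and 3 with TMM, the mean of barcode CPM, doubled floors or at least 200 UMIs. It was also 3 without the C1q-low gate, an alternative chosen after seeing the data. Of all genes in both monocyte gates, 231 lower became 324 with thinning, 127 with TMM and 263 with the mean of barcode CPM. They became 206 with doubled floors, 177 with at least 200 UMIs and 239 without the C1q-low gate.

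Over all genes in the macrophage gates, 57 were higher and 267 lower. TMM gave 109 and 144, so the share of called genes that were higher was 43.1% instead of 17.6%, and in both monocyte gates 44.5% instead of 18.1%. A pseudocount of 1 CPM gave 165 and 905, and a minimum of 200 UMIs 36 and 151. Thinning gave 99 higher, the mean of barcode CPM 401 lower and mixed barcodes kept 135 lower. TMM moved the median of all genes by 0.12 in macrophages with both C1q and Arg1 genes and 0.13 in Chil3 monocytes, on the log2 scale. Doubled floors left 5 and 12 C1q-low macrophages. Over the macrophage gates Lpl rested on 71 UMIs in the ketogenic and 252 in the normal library.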
